A study of Mus musculus with 10 samples.

Results

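The 77 mitochondrial ribosomal protein genes measured here, the members, were the rows of the 10 UMI count tables whose symbol begins with Mrpl or Mrps and a number, out of 18292 gene symbols in all. All 77 had at least 1 UMI (a count of 1 captured RNA molecule) in every library, and all 77 passed the filter on low counts that left 12157 genes to test. By where their protein sits, 50 belong to the large subunit and 26 to the small subunit. Mrps36 was first listed as a small subunit protein and is now assigned to the 2-oxoglutarate dehydrogenase complex. Of the large subunit genes, 30 have a bacterial homologue and 20 are specific to mitochondria or were taken over from other functions, and the small subunit genes divide into 16 and 10.

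The mitochondrial ribosome sits in the matrix and translates the few messenger RNAs that mitochondrial DNA encodes, all of them subunits of the respiratory chain and the ATP synthase. Its RNAs are encoded in the mitochondrion, whereas every one of its proteins is encoded in the nucleus, made on cytosolic ribosomes and imported. In microglia, the resident macrophages of the brain, the shift between respiration and glycolysis is a known companion of activation, so the supply of this machinery is of interest when the cells are taken out of the brain.

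Microglia from C57BL/6 mice were sorted as live cells with high CD11b and intermediate CD45 and profiled in droplets with a 3' UMI kit. Each of 5 groups held 2 libraries, which the series calls biological replicates. Adult libraries came from adult mouse brain, in vitro libraries from mixed glial cultures of neonatal cortex kept for 3 weeks, and slice libraries from brain slices of neonatal pups kept for 1 day, 1 week or 3 weeks, for which several slices were pooled as needed. No group was given a test agent, but the slice medium held horse serum, PDGF was added at each change of it, and the mixed glial medium held horse and fetal bovine serum. The in vitro cells were those collected from that medium. The cultured cells came from neonates and the reference cells from adults, so age and culture cannot be told apart in any comparison with adult, and no uncultured neonatal cells were among the samples used.

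After filtering, libraries held 61 to 3799 cells and 385373 to 39689540 UMIs, with the fewest cells in slice 1 week replicate 2 and replicate 1 next (148). All 11 microglia and macrophage markers checked had UMIs in every library. Their summed level ran from 11771 CPM (UMI counts scaled to a common library size) in slice 1 day replicate 2 to 55874 CPM in adult replicate 1. The marker sums in this paragraph are without TMM factors, whereas the CPM of single genes below are with them. The 10 neutrophil markers summed to between 21.4 and 211 CPM in the adult, in vitro and slice 3 weeks libraries, but to 7798 and 22469 CPM at slice 1 day and to 40272 and 1033 CPM at slice 1 week. Of the UMIs of a library, 4997 and 1958 fell on members at slice 1 week and at least 25233 elsewhere. Monocyte markers reached 885 CPM in slice 1 week replicate 1, 411 and 218 at slice 1 day and at most 39.9 elsewhere, and erythrocyte markers 3463 CPM in slice 1 day replicate 1 and 1852 in adult replicate 1 but at most 1.02 elsewhere. The part of the erythrocyte markers in the results was not tested. Adult replicate 1 and slice 3 weeks replicate 1 carry another study label than the other 8 libraries. With 2 libraries a group, measures that give a single number for a library were left untested.

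The promoters of 6 members are shown because the results below turn on several of these genes, with and without matches to motifs of factors known for nuclear genes of mitochondria. Each line gives 160 bases 5' to 3', from 130 before the RefSeq transcription start (GRCm38.p6), and capitals mark matches on either strand to GCGCATGC (the NRF1 core), CCGGAAG (ETS factors such as GABPA) or AAGATGGC (YY1). The places are chr5:31613821-31613980 (plus strand) for Mrpl33, chr14:54426779-54426938 (plus) for Mrpl52, chr7:105811058-105811217 (minus) for Mrpl17, chr9:98601650-98601809 (minus) for Mrps22, chr11:120484507-120484666 (plus) for Mrpl12 and chr2:28467936-28468095 (plus) for Mrps2.
Mrpl33: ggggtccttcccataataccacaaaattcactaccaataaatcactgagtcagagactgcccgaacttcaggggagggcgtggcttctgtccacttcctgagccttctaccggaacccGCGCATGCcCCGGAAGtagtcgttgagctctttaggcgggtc
Mrpl52: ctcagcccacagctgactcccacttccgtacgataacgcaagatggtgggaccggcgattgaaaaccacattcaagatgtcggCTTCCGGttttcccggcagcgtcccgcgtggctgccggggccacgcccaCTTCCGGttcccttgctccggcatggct
Mrpl17: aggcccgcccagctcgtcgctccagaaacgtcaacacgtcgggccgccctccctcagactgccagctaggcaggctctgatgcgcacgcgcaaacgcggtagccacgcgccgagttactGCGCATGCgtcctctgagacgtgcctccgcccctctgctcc
Mrps22: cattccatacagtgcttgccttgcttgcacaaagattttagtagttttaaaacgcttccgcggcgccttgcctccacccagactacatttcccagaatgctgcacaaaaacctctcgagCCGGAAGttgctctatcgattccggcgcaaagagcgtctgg
Mrpl12: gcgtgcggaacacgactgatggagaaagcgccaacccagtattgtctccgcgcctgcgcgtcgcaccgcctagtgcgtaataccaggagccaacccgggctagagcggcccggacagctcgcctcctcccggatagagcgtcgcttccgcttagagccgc
Mrps2: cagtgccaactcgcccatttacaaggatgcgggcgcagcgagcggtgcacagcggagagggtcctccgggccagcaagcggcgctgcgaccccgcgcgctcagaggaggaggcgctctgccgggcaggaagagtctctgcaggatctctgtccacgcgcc
In these stretches Mrpl33 held an NRF1 match followed by an ETS match at its RefSeq start, and Mrpl52 had ETS matches on both sides of its start. Mrpl17 had 1 NRF1 match, Mrps22 had 1 ETS match, and Mrpl12 and Mrps2 held none of these letters. In the GENCODE annotation Mrpl33 begins upstream, at chr5:31596935, so the RefSeq start used here lies inside that gene's span.

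Promoter windows of 300 bases were found for 68 of the 77 members in a table of 27025 genes. The ETS letters stood in 25 of the 68 member windows (36.8%) and in 9.93% of all windows. YY1 letters stood in 12 (17.6%, against 3.19% of all) and NRF1 letters in 8 (11.8%, against 3.05%). Of 65 windows of cytosolic ribosomal protein genes 38.5% held the ETS letters, with YY1 letters in 9.23% and NRF1 letters in 4.62%. The NF-Y letters CCAAT (39.7% against 41.1%), the E-box CACGTG (7.35% against 8.09%) and the GC box GGGCGG (50% against 38.2%) were nearer to the share of all windows. Both strands were searched, no motif contains another, and a match describes letters, not a bound factor. Of the 37 members with a window that rose at slice 1 day, 16 held the ETS letters (43.2%), and of the 31 others 9 did (29.0%), while for YY1 the counts were 6 and 6 and for NRF1 4 and 4.

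All 77 members are annotated as protein coding (GENCODE vM21, GRCm38) and lie on 17 chromosomes, with at most 10 on 1 of them, chromosome 11. A protein-coding gene starts within 500 bases on the opposite strand for 25 members (32.5%), against 8.91% of 21951 protein-coding genes. Among these pairs Mrpl46 and Mrps11 overlap at their starts. Mrps12 is paired with Sars2, the mitochondrial seryl-tRNA synthetase, and Mrpl36 with Ndufs6, a subunit of respiratory complex I. For 4 members an overlapping protein-coding gene on the same strand leaves the counts uncertain, namely Mrpl53 (Gm42688), Mrps24 (Urgcp), Mrps34 (Nme3) and Mrps6 (Slc5a3).

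As a share of all UMIs, the 77 genes were highest in slice microglia after 1 day and next in the in vitro cells, and overlapped the adult level in slices at 1 and 3 weeks. The share was 0.469% and 0.479% in the adult libraries (0.474% ± 0.0077, SD, n = 2). It was 0.582% and 0.604% in vitro (0.593% ± 0.0155) and 0.689% and 0.734% at slice 1 day (0.712% ± 0.0320). At slice 1 week it was 0.462% and 0.508% (0.485% ± 0.0323), and at slice 3 weeks 0.487% and 0.455% (0.471% ± 0.0227). Both slice 1 day libraries lay above both in vitro libraries, which lay above the other 6, whereas adult, slice 1 week and slice 3 weeks overlapped. Without the cells that held at least 3 UMIs of 22 proliferation genes at full depth, a mark that deeper cells reach more easily, they did not, with 0.468% and 0.478% in adult, 0.432% and 0.412% at slice 1 week and 0.455% and 0.436% at slice 3 weeks. The small slice 1 week libraries had 95% Wilson intervals of 0.450% to 0.475% and 0.486% to 0.531%, which cover counting error only.

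Cytosolic ribosomal protein genes followed another course. Their share was 7.0% and 5.67% in adult and between 12.1% and 20.1% in all 8 cultured libraries, with 15.2% and 16.3% at slice 1 week, 13.8% and 20.1% at slice 3 weeks and, between the replicates of each, 16% and 15.9% at slice 1 day. With all cells, the mitochondrial share at 1 and 3 weeks overlapped adult and the cytosolic share did not.

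**Figure D1:**
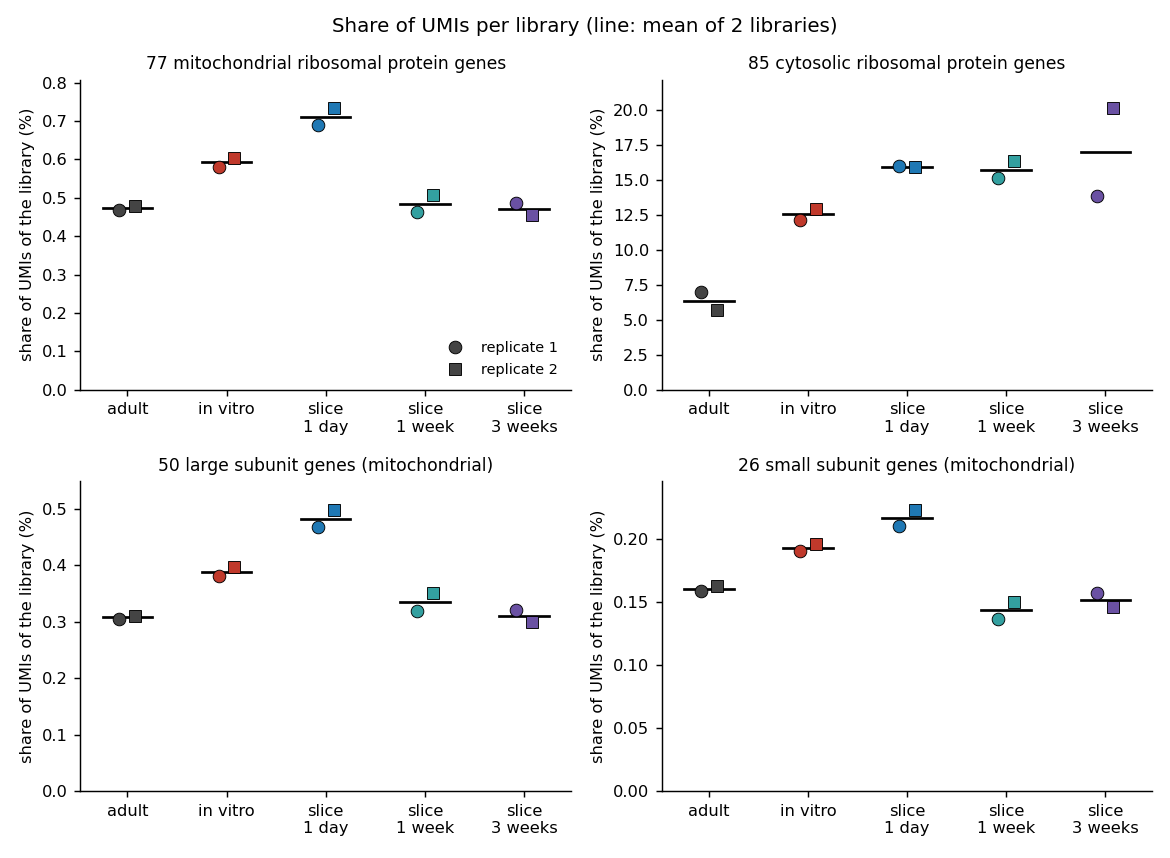
Share of each library's UMIs (%) in the 77 mitochondrial ribosomal protein genes, in 85 cytosolic ribosomal protein genes, and in the 50 large and 26 small subunit genes of the mitochondrial ribosome, for the 5 groups, with circles and squares for replicates 1 and 2 and a line for their mean. The mitochondrial share was highest at slice 1 day (0.689% and 0.734%) and overlapped adult at 1 and 3 weeks, while the cytosolic share stayed above 12% in all cultured libraries.

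Large subunit genes took 0.305% and 0.311% of UMIs in adult, 0.381% and 0.396% in vitro, 0.467% and 0.499% at slice 1 day, 0.319% and 0.351% at 1 week and, at 3 weeks, 0.321% and 0.300%. For the small subunit the shares were 0.158% and 0.162%, then 0.190% and 0.196%, then 0.210% and 0.223%, then 0.136% and 0.150%, and 0.157% and 0.146%. Both subunits had the same order of groups at the top, but at slice 1 week both small subunit values lay below adult and both large subunit values lay above it. These 1 week values come from only 4997 and 1958 member UMIs, and replicate 1 held neutrophil markers at 40272 CPM. The split between subunits was not tested.

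Counts summed per library were compared gene by gene with edgeR's quasi-likelihood test, and a gene was called where its adjusted p was under 0.05 and its fold change over 1.5. Log2 fold changes below are from that fit, and all 4 comparisons with adult share the same 2 adult libraries, so they are not independent.

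At slice 1 day, 42 of the 77 members rose against adult, beside 24.9% of all genes tested. No member fell, beside 25.3% of all genes (0 members fell at an unadjusted p under 0.05 too, and 0 by DESeq2, which called 45 risen). The median log2 fold change was 0.61 over the members and -0.06 over all genes, and 70 of the 77 had a positive fold change. The rise took in both subunits: 28 of 50 large and 13 of 26 small subunit genes were called, and by origin 19 of 30 large subunit genes with a bacterial homologue, 9 of 20 large subunit genes without one, and 8 of 16 and 5 of 10 in the small subunit. Without the cells that carried at least 1% of UMIs in markers of other cell types the count was 45, without cells marked as cycling at full depth 31, and with 1 library left out 36 to 46. It was 25 under the planned rule of 3 UMIs in such markers, which left no cells of slice 1 day replicate 2 (with the members' median 0.84 above that of all genes), 21 with libraries thinned to the smallest total, and 76 with UMIs per cell and no scaling for depth.

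The 3 largest rises at 1 day were in Mrpl12, Mrpl54 and Mrpl28. Mrpl12 encodes the stalk protein that brings translation factors to the ribosome, and its level was 72.4 and 60.5 CPM in adult, 126 and 134 in vitro, 183 and 205 at slice 1 day, 78.1 and 123 at 1 week and, at 3 weeks, 93.1 and 94.7. Both 1 day libraries exceeded all others, and the change from adult was 1.54 (SE 0.18, adjusted p = 7.26e-05). Mrpl54, a large subunit protein without bacterial homologue, stood at 51.8 and 53.7 CPM in adult, 120 and 135 in vitro, 151 and 155 at slice 1 day, 96.8 and 115 at 1 week and, at 3 weeks, 89.5 and 80.5. Its adult libraries were the lowest of the 10, and it was called against adult in every culture, by 1.54 at 1 day (SE 0.14, adjusted p = 1.4e-05), 1.27 in vitro, 0.99 at 1 week and, at 3 weeks, 0.69.

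Mrpl52, also mitochondria-specific, was the member with the highest level in adult, at 198 and 171 CPM, and the one with the highest level at slice 1 day, at 407 and 421. In vitro (245 and 259), at 1 week (244 and 253) and at 3 weeks (238 and 263) it stood between these, so that the rise was 1.16 at 1 day (SE 0.14, adjusted p = 7.44e-05). The kit counts 1 tag at the 3' end of a molecule, so levels need no scaling for gene length, though overlapping genes can still affect them. The members next in adult level were Mrps33 (158 and 165 CPM), Mrps14 (123 and 153), Mrpl23 (121 and 127) and Mrps21 (110 and 111). Mrps33 was the steadiest of them, with 141 to 202 CPM over all 10 libraries and no call in any comparison.

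Further large subunit genes that rose at 1 day were Mrpl20, at 85.5 and 78.3 CPM in adult and 195 and 226 at 1 day (1.36), and Mrpl57, at 55.6 and 54.6 and at 129 and 146 (1.32, SE 0.14, adjusted p = 2.7e-05). In the small subunit Mrps28 went from 33.1 and 36.3 to 74.4 and 83.4 CPM (1.19), and Mrps22, the low member whose promoter is shown above, rose by 1.08. Each of these had no overlap between the adult and the 1 day libraries.

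Mammals have 3 paralogues of bacterial S18. Mrps18b, a small subunit protein, was at 48.9 and 47.3 CPM in adult, 45.2 and 48.0 in vitro, 95.4 and 103 at slice 1 day, 37.6 and 53.7 at 1 week and, at 3 weeks, 50.2 and 46.3. Its 1 day level was double that of any other group's mean, a change of 1.04 from adult (SE 0.14, adjusted p = 1.74e-04), while the in vitro change was -0.05. Mrps18a, which sits in the large subunit, was highest in vitro instead, at 129 and 136 CPM, against 66.6 and 74.8 in adult and 105 and 116 at 1 day, and was called in both. Mrps18c, at the ancestral place in the small subunit, had 81.1 and 93.0 CPM in adult, 127 and 132 in vitro and 121 and 143 at 1 day. It was called at 1 day (0.60) though not without slice 1 day replicate 2 (0.54) or adult replicate 1 (0.55). Its in vitro change of 0.58 (adjusted p = 0.00618) was just under the fold limit. That change was 0.67 without adult replicate 2, 0.73 without in vitro replicate 1 and 0.67 without in vitro replicate 2, above the limit.

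**Figure D2:**
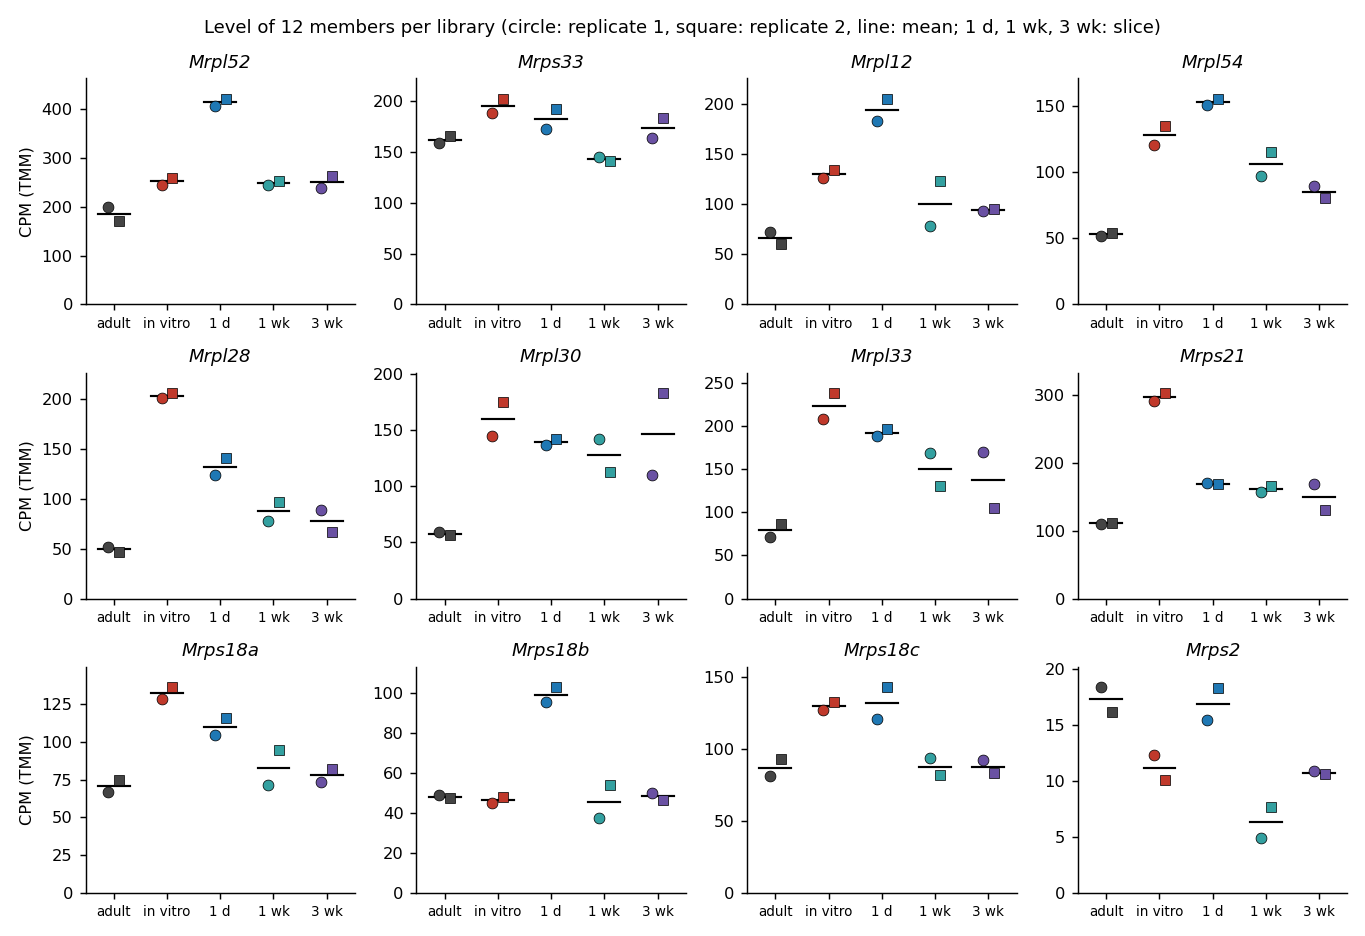
Level in CPM (TMM scaled) of 12 members in each library, with circles and squares for replicates 1 and 2 and a line for the mean of 2 libraries, each panel on its own axis from 0. Mrpl12, Mrpl52 and Mrps18b peaked at slice 1 day, Mrpl28, Mrps21 and Mrps18a in vitro, Mrps33 varied least and Mrps2 was lowest at slice 1 week.

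In vitro, 32 members rose against adult, beside 22.4% of all genes, and 2 fell, beside 28.5%. The median was 0.45 over the members and -0.11 over all genes. Of the large subunit 21 rose and 1 fell, and of the small subunit 10 rose and 1 fell. DESeq2 called 34 risen and 1 fallen, library size alone (no TMM factors) gave 19 risen and 6 fallen, libraries thinned to the smallest total gave 22 risen and UMIs per cell 76, and the counts with 1 library left out summed to between 32 and 39.

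The largest rise in vitro was in Mrpl28, a large subunit protein with a bacterial homologue. It stood at 52.3 and 46.4 CPM in adult and at 201 and 206 in vitro, with 124 and 141 at slice 1 day, 78.1 and 97.2 at 1 week and, at 3 weeks, 89.0 and 66.9. The in vitro libraries exceeded all others, by 2.04 over adult (SE 0.17, adjusted p = 5.42e-06) and by 1.39 over slice 3 weeks (SE 0.17, adjusted p = 1.73e-04). Mrps21, of the small subunit, had a like pattern, with 110 and 111 CPM in adult, 291 and 302 in vitro and 130 to 169 in all 6 slice libraries, a change of 1.42 in vitro (SE 0.15, adjusted p = 2.21e-05). Mrps24 rose by 1.25, from 78.8 and 75.1 to 181 and 185 CPM, with the overlapping gene Urgcp as a limit on its counts.

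Mrpl33 and Mrpl30, both with a bacterial homologue, were raised in vitro and in every slice group. Mrpl33 stood at 71.3 and 86.8 CPM in adult, 208 and 238 in vitro, 189 and 196 at slice 1 day, 169 and 130 at 1 week and, at 3 weeks, 170 and 105. Mrpl30 stood at 59.5 and 56.3 CPM in adult, 145 and 175 in vitro, 137 and 142 at slice 1 day, 142 and 113 at 1 week and, at 3 weeks, 110 and 183. For both genes all 8 cultured libraries lay above both adult libraries. The changes from adult in the same order of groups were 1.5, 1.29, 0.95 and 0.80 for Mrpl33 and 1.46, 1.26, 1.16 and 1.34 for Mrpl30.

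Mrpl53, Mrps27 and Mrps6 had the lowest adult levels of the 77, with overlapping genes as a limit on the counts of Mrpl53 and Mrps6. Mrps27 was at 8.86 and 9.66 CPM in adult and 5.93 to 14.5 in the cultured libraries, with no call. Mrps6, at 13.5 and 7.73 CPM in adult, was at 18.1 and 19.6 in vitro (0.81) and 19.4 and 21.8 at 1 day (0.94), and neither call held without adult replicate 2 (0.48 and 0.62) or without either library of the group itself, where the change was 0.99 and 0.87 in vitro and 1.02 and 0.91 at 1 day but the adjusted p missed the limit. Both members that fell in vitro have low levels. Mrps2, a small subunit protein with a bacterial homologue, stood at 18.4 and 16.2 CPM in adult and 12.3 and 10.1 in vitro, a change of -0.63 (SE 0.19, adjusted p = 0.0149) that was not called without adult replicate 1 (-0.44), in vitro replicate 1 (-0.66) or in vitro replicate 2 (-0.37) and was 1.52 with UMIs per cell and no scaling for depth, still below the median of all genes, which moved by 2.16. Mrpl53 stood at 3.96 and 0.773 CPM in adult and 0.321 and 0.196 in vitro. Its change of -3.24 (SE 0.98, adjusted p = 0.0164) rested on adult replicate 1, since it was -1.46 without that library (adjusted p = 0.423), and it was called neither without in vitro replicate 1 (-3.46) nor without in vitro replicate 2 (-2.78).

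Members with known places in the working ribosome were looked at whatever their values. Mrps12, of the decoding centre, rose in vitro from 55.3 and 54.7 to 89.0 and 91.5 CPM (0.71). Mrpl11, at the base of the stalk, was at 49.4 and 42 CPM in adult, 66.6 and 70.9 in vitro and 70.5 and 76.6 at 1 day, with calls in both (0.59 and 0.69) that were lost without adult replicate 2 (0.47 and 0.58), in vitro replicate 2 (0.66) or slice 1 day replicate 2 (0.68). Mrpl45, the protein near the exit tunnel that holds the ribosome at the inner membrane, rose from 24.4 and 27.8 to 48.7 and 49.8 CPM in vitro and to 48.2 and 49.0 at 1 day (0.92 and 0.90). Mrps36, whose product works in the 2-oxoglutarate dehydrogenase complex, was at 47.6 and 55.0 CPM in adult, 114 and 126 in vitro, 112 and 124 at slice 1 day, 75.1 and 69.1 at 1 week and, at 3 weeks, 85.8 and 91.5.

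At slice 1 week 8 members rose, beside 15% of all genes, and 2 fell, beside 13.6%, with medians of 0.09 over the members and -0.09 over all genes. The members' shares were thus below the share of all genes in both directions. By library size alone, without TMM scaling, 5 rose and 9 fell as the median of all genes moved by -0.22, and the members' median stood 0.17 above it. With UMIs per cell and no scaling for depth 61 rose and 0 fell as the median of all genes moved by 1.19. Without slice 1 week replicate 1, the library with neutrophil markers at 40272 CPM, 4 rose and 0 fell, while the members' median stood 0.39 above that of all genes. Under the rule of 3 UMIs in markers of other cell types, which left no cells of that library, 3 rose and that distance was 0.54. Of the 8 that rose 7 belong to the large subunit, led by Mrpl30 (1.16, SE 0.24, adjusted p = 0.00529), Mrpl54 (0.99, SE 0.15, adjusted p = 0.00102), Mrpl33 (0.95) and Mrpl57 (0.83). Mrpl30 was not called without slice 1 week replicate 1 (0.99, adjusted p = 0.0958), nor was Mrpl33 without it (0.75) or without adult replicate 1 (0.85).

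Mrps2 fell most at 1 week, to 4.94 and 7.68 CPM (-1.59, SE 0.36, adjusted p = 0.00829), from few UMIs, and was not called without slice 1 week replicate 1 (-1.15, adjusted p = 0.315). Mrpl36, a large subunit protein with a bacterial homologue, fell from 71.0 and 76.6 CPM in adult to 40.5 and 56.3 (-0.67, SE 0.18, adjusted p = 0.0189), and this call was lost without either adult library (-0.68 and -0.63) or without slice 1 week replicate 1 (-0.36), and the change was 0.56 with UMIs per cell and no scaling for depth, still below the median of all genes, which moved by 1.19.

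At slice 3 weeks 6 members rose, beside 17.9% of all genes, and 1 fell, beside 17.5%. The medians were 0.10 and -0.03, so here too the members' shares lay below those of all genes. By library size alone 2 rose and 3 fell as the median of all genes moved by -0.20, with the members' median 0.13 above it. With UMIs per cell 73 rose and 0 fell as the median of all genes moved by 1.09, and without slice 3 weeks replicate 2 there were 11 that rose, without replicate 1 there were 4 that rose and 3 that fell, and with libraries thinned to the smallest total 3. The 6 were Mrpl30 (1.34, SE 0.22, adjusted p = 9.98e-04), Mrpl33 (0.80), Mrps36 (0.79, SE 0.14, adjusted p = 0.00132), Mrpl54 (0.69), Mrpl28 (0.66, SE 0.17, adjusted p = 0.0118) and Mrpl13 (0.60), a large subunit protein with a bacterial homologue.

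Several of these depended on 1 library. Mrpl33 was not called without slice 3 weeks replicate 1 (0.45) or adult replicate 1 (0.72), and Mrpl28 and Mrpl13 not without slice 3 weeks replicate 1 (0.48 and 0.55) or adult replicate 2 (0.57 and 0.52). The fall was in Mrps2, at 10.9 and 10.6 CPM (-0.69, SE 0.19, adjusted p = 0.0164), and was not called without adult replicate 1 (-0.54) or slice 3 weeks replicate 2 (-0.62), and was 0.39 with UMIs per cell and no scaling for depth, still below the median of all genes. In CPM, Mrps2 was lower than adult in every library of the in vitro, slice 1 week and slice 3 weeks groups, but at 15.5 and 18.3 CPM overlapped adult at slice 1 day.

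**Figure D3:**
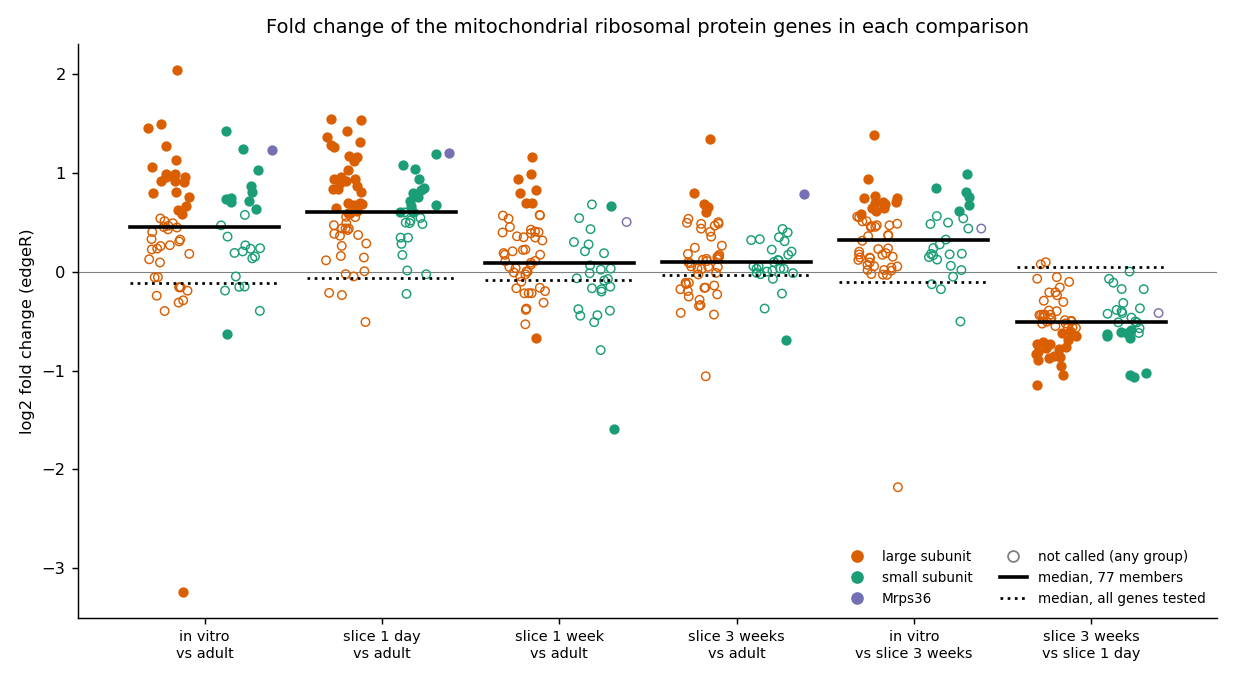
Log2 fold change of each of the 77 members in the 6 comparisons, with large subunit, small subunit and Mrps36 in different colours, filled where the gene was called and open where not, a solid line at the members' median and a dotted line at the median of all genes tested. The members' median lay above that of all genes by the most at slice 1 day (0.61 against -0.06), by less at 1 and 3 weeks against adult, and lay below it from 1 day to 3 weeks.

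Within slices, members were lower at 3 weeks than at 1 day. Of the 77, 28 fell, beside 12.8% of all genes, and none rose, beside 13.9% (0 rose at an unadjusted p under 0.05, and 0 by DESeq2, which called 30 fallen). The median was -0.50 over the members and 0.05 over all genes. Both groups came from neonatal slices, so this comparison has no adult reference, though the filter, scaling and spread of the fit still used the adult libraries. The cells at 3 weeks were also older than those at 1 day, so age and time in culture cannot be told apart here either. The count was 13 without slice 1 day replicate 2, 17 without cells marked as cycling at full depth, 8 with libraries thinned to the smallest total and 31 without the cells that carried 1% of UMIs in markers of other types. Under the planned rule of 3 UMIs in such markers, which left no cells of slice 1 day replicate 2, it was 1, while the distance of the members' median from that of all genes was -0.65.

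Those that fell were 19 large and 9 small subunit genes. Mrpl47, at 26.2 and 38.8 CPM at 1 day and 15.7 and 14.3 at 3 weeks, changed by -1.15 (SE 0.21, adjusted p = 0.00339), and was not called without slice 1 day replicate 2 (-0.81). Mrps28 fell to 40.5 and 35.1 CPM (-1.07, SE 0.13, adjusted p = 5e-04), Mrpl12 changed by -1.05 (SE 0.18, adjusted p = 0.00233) and Mrps18b by -1.04 (SE 0.14, adjusted p = 7.32e-04). For these last 3 genes every 1 day library lay above every 3 weeks library. Of Mrpl46 and Mrps11, which overlap at their starts on opposite strands, Mrpl46 fell from 52.9 and 48.8 to 31.3 and 34.7 CPM (-0.62). Mrps11, at 41.1 and 52.2 and then 46.3 and 26.6 CPM, was not called in any comparison. The difference between these 2 genes was not tested.

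Set against slice microglia of the same 3 weeks in culture, in vitro cells had 19 members higher, beside 13.3% of all genes, and none lower, beside 19.9% (1 lower at an unadjusted p under 0.05, and 0 by DESeq2, which called 22 higher). The medians were 0.33 and -0.10. The count was 30 without slice 3 weeks replicate 1, and calls in both directions summed to 12 by library size alone, 6 with libraries thinned to the smallest total and 75 with UMIs per cell. Of the 19, 13 belong to the large and 6 to the small subunit. After Mrpl28 the largest differences were in Mrps21 (0.99, SE 0.15, adjusted p = 5.93e-04), Mrpl34, at 111 and 116 CPM in vitro and 61.8 and 56.3 at slice 3 weeks (0.94), and Mrps24 (0.85). Mrps14 (0.76), Mrps18a (0.76), Mrpl36 (0.69) and Mrps12 (0.68) were called as well.

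Libraries of the more common study label alone left 1 library in adult and 1 at slice 3 weeks, so only the size of the change is given. Against adult, the members' median stood above that of all genes by 0.54 in vitro, 0.62 at slice 1 day, 0.14 at 1 week and 0.09 at 3 weeks. The same distance was 0.50 between in vitro and slice 3 weeks and -0.59 between 3 weeks and 1 day.

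With the limit on fold change dropped, members past an adjusted p of 0.05 in either direction numbered 44 in vitro (56.2% of all genes), 56 at slice 1 day (55.1%), 18 at 1 week (30.2%) and 17 at 3 weeks (40%) against adult. There were 34 between in vitro and slice 3 weeks (38.2%) and 46 between 3 weeks and 1 day in slices (30.6%). On this count the in vitro members were at about the share of all genes, and those at 1 week and 3 weeks below it.

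Ribosome subunits that the naming rule leaves out were also measured. The 6 found are Dap3, Ptcd3, Chchd1, Aurkaip1, Gadd45gip1 and Ict1 (the older symbol of Mrpl58, the peptidyl-tRNA hydrolase of the large subunit). Of them 5 rose at slice 1 day and 4 fell from 1 day to 3 weeks, beside 24.9% and 12.8% of all genes. In vitro 3 rose and 1 fell, beside 22.4% and 28.5%. At 1 week and at 3 weeks 1 rose, beside 15% and 17.9%. Dap3, a GTP-binding small subunit protein with a role in cell death, rose from 22.9 and 21.9 to 54.3 and 60.2 CPM (1.35, adjusted p = 5.32e-05). Ptcd3, of the small subunit, fell in vitro (-0.66) and was at 24.4 and 25 CPM at 1 day against 18.2 and 18.5 in adult, which was not called.

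The counts for the lists that follow stand beside 22.4%, 24.9%, 15% and 17.9% of all genes that rose against adult in vitro and at 1 day, 1 week and 3 weeks, and 28.5%, 25.3%, 13.6% and 17.5% that fell. Of 24 genes for assembly and maturation of its RNA, 1 rose (Rpusd3, 0.93) and 5 fell at slice 1 day, and 8 fell in vitro, 4 at 1 week and, at 3 weeks, 5, so that the falls were near the share of all genes. By the edgeR test 0 rose in vitro, at 1 week and at 3 weeks, where 1, 0 and 1 were higher at an unadjusted p under 0.05 and 0 by DESeq2, so the rises lay below that share. Dhx30, an RNA helicase of the mitochondrial RNA granule, was at 60.6 and 88.9 CPM in adult and between 20.5 and 38.3 in all 8 cultured libraries, and was called lower in vitro (-1.65), at 1 day (-1.31), at 1 week (-1.45) and at 3 weeks (-0.97). Ngrn, needed for the large ribosomal RNA, was at 44.8 and 47.9 CPM in adult and 22.8 and 14.4 at 1 day (-1.36). The median of this list was -0.36 in vitro, -0.07 at 1 day, -0.54 at 1 week and -0.33 at 3 weeks, beside -0.11, -0.06, -0.09 and -0.03 over all genes.

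Among 15 translation factors, 4 rose and 3 fell in vitro and 3 rose and 2 fell at 1 day. Slirp, which stabilises mitochondrial messenger RNAs together with Lrpprc, rose in vitro from 85.8 and 82.8 to 209 and 218 CPM (1.34) and at 1 day to 193 and 198 (1.21). Gfm2, which releases ribosomes after termination, fell in vitro from 26.6 and 28.3 to 8.70 and 9.77 CPM (-1.57). Of 20 mitochondrial aminoacyl-tRNA synthetases and amidotransferase subunits, 1 rose and 4 fell in vitro, and 3 rose and 4 fell at 1 day, with 1 and 2 at 1 week and 4 and 4 at 3 weeks. Lars2, the leucyl-tRNA synthetase, was at 3.52 and 2.83 CPM in adult, 7.16 and 7.18 in vitro and 8.13 and 7.21 at 1 day.

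Of 10 genes that transcribe and copy mitochondrial DNA, 4 fell in vitro, 3 at slice 1 day, 2 at 1 week and, at 3 weeks, 4. Tefm, the elongation factor of mitochondrial transcription, was at 25 and 29.2 CPM in adult and 6.92 to 18.1 in the cultured libraries, and was called lower in all 4 comparisons. Of 9 regulators of mitochondrial biogenesis tested, 2 fell in each of these comparisons, which is near the share of all genes. Gabpb1, the partner of GABPA, fell in all 4, and Myc, a driver of growth, fell in vitro from 18.5 and 53.1 to 6.78 and 5.0 CPM (-2.58). Nrf1 itself was at 26.3 and 25.6 CPM in adult, 18.5 and 18.7 in vitro and 21.0 and 22.9 at 1 day.

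The messages that the mitochondrial ribosome translates were called in other numbers. Of 13 mitochondrially encoded messenger RNAs, 11 rose in vitro, 2 at slice 1 day, 4 at 1 week and, at 3 weeks, 8, with medians of 0.99, 0.29, 0.53 and 0.91. At slice 1 day, where the members were highest, fewest of them were called. mt-Co1, the catalytic subunit of cytochrome oxidase, was at 1265 and 931 CPM in adult, 5324 and 5450 in vitro, 2167 and 2200 at slice 1 day, 3683 and 4286 at 1 week and, at 3 weeks, 3682 and 4243. Cells with over 5% of UMIs in mitochondrial genes had been removed, which bounds these levels.

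Genes of import and quality control, the route by which the members' proteins enter the matrix, were called most often at 1 day. Of 20, 17 rose at 1 day (median 1.22), 11 in vitro (0.70), 9 at 1 week (0.56) and 8 at 3 weeks (0.49), and 8 fell from 1 day to 3 weeks. Hspa9, the chaperone that pulls proteins into the matrix, was at 65.9 and 71.2 CPM in adult, 112 and 109 in vitro, 255 and 261 at slice 1 day, 139 and 120 at 1 week and, at 3 weeks, 151 and 211. Hspd1, the matrix chaperonin, was at 65.6 and 79.0 CPM in adult and 244 and 269 at 1 day.

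The 2 comparison lists had calls in every culture. Of 83 cytosolic ribosomal protein genes tested, 78 rose in vitro, 79 at slice 1 day, 81 at 1 week and, at 3 weeks, 80, with medians of 1.3, 1.57, 1.56 and 1.63. Of 37 nuclear subunits of complex I, which works beside the products of the mitochondrial ribosome, 29, 23, 17 and 17 rose in the same order, with medians of 0.98, 0.75, 0.52 and 0.54. From 1 day to 3 weeks in slices 3 of the 83 and 3 of the 37 fell, beside 12.8% of all genes, with medians of 0.12 and -0.19, and 12 of the 37 were lower at an unadjusted p under 0.05. The difference from the members was not tested.

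Depth per cell differed widely, so members per cell were compared after thinning each cell to 1800 UMIs, which left 16910 cells. The cells too shallow for this were 413 and 1618 in adult, 0 in vitro, 26 and 0 at slice 1 day, 9 and 9 at 1 week and, at 3 weeks, 23 and 51, so the adult cells compared are the deeper ones. Before thinning, the median number of members with a UMI in a cell was 13 and 8 in adult, 41 and 43 in vitro, 27 and 37 at slice 1 day, 23 and 22 at 1 week and, at 3 weeks, 23 and 19. After thinning it was 8 and 8, 9 and 9, 10 and 11, 7 and 8, and 8 and 7. The mean number of member UMIs in a thinned cell was 8.50 and 8.82 in adult, 10.3 and 10.6 in vitro, 11.4 and 12.8 at slice 1 day, 8.30 and 9.42 at 1 week and, at 3 weeks, 8.67 and 8.09. Slice 1 day was thus highest at equal depth also.

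Cells differed more among themselves at slice 1 day than in adult. The variance of member UMIs over cells divided by the mean was 1.11 and 1.07 in adult, close to the 1 that counting alone gives, and 1.25 and 1.36 in vitro, 2.14 and 2.09 at slice 1 day, 1.98 and 1.22 at 1 week and, at 3 weeks, 1.40 and 1.39. The thinned cells that carried at least 1% of UMIs in markers of other cell types (54 and 116 at 1 day) had a mean of 7.80 and 7.14 member UMIs, against 11.9 and 13.6 in the rest. Without them the ratio at 1 day was 2.01 and 1.74. In slice 1 week replicate 1 the 24 such cells had 6.08 against 8.77, and the ratio without them was 1.76.

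**Figure D4:**
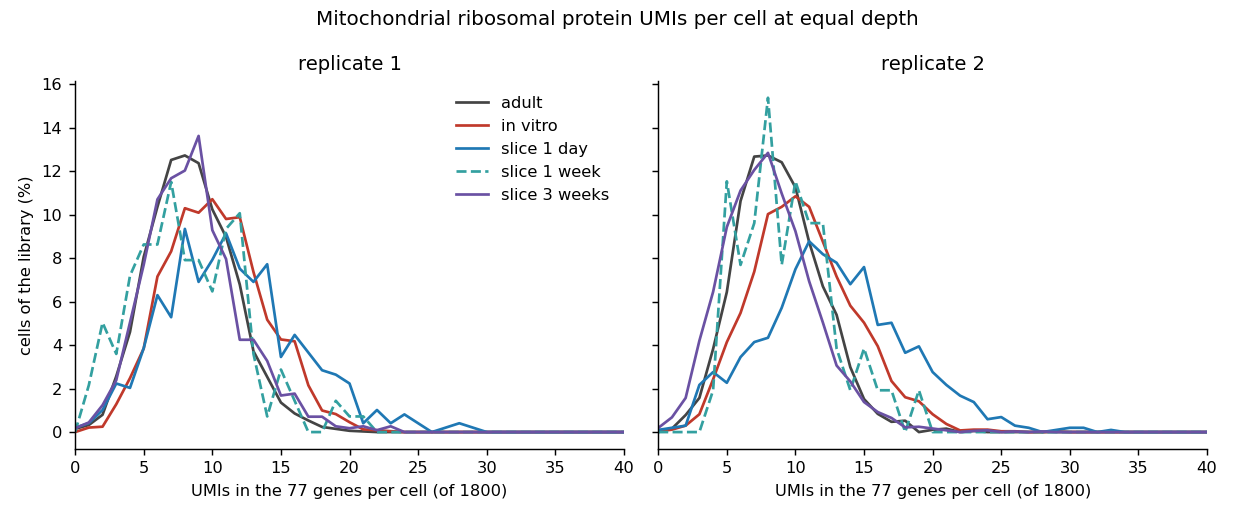
Distribution of the number of UMIs in the 77 genes per cell, each cell thinned to 1800 UMIs, as the percentage of a library's cells at each number, with replicate 1 on the left and replicate 2 on the right and 1 line per group. Slice 1 day reached the highest numbers and was the widest (means 11.4 and 12.8), and the dashed slice 1 week lines are from libraries with few cells.

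For a comparison within libraries, cycling cells were marked by at least 3 UMIs over the 22 proliferation genes after thinning, which marks fewer cells than at full depth. At slice 1 day the members took 0.843% of UMIs in the 65 cycling cells of replicate 1 and 0.602% in its 427 other cells, and 0.858% and 0.678% in the 195 and 819 of replicate 2. In vitro the shares were 0.661% and 0.558% in replicate 1 and 0.706% and 0.566% in replicate 2. At slice 3 weeks they were 0.537% and 0.468%, and 0.536% and 0.441%. In all 6 of these libraries the cycling cells were higher, by 1.15 to 1.40 times. The few cycling adult cells (22 and 29) were lower in replicate 1 (0.424% against 0.473%) and higher in replicate 2 (0.508% against 0.489%). Cells with markers of other cell types, which at slice 1 day were low in member UMIs, were not removed here. What they contribute to these ratios was not tested.

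The other cells alone had the same groups at the top. Their share was 0.473% and 0.489% in adult, 0.558% and 0.566% in vitro, 0.602% and 0.678% at slice 1 day and 0.468% and 0.441% at slice 3 weeks, so slice 1 day was highest, in vitro next, and slice 3 weeks below adult. Slice 1 week had fewer than 20 cycling cells in each library and was left out. Unthinned, the share of cells marked as cycling was 2.05% and 1.67% in adult, 47.6% and 62.2% in vitro, 29.2% and 55.9% at slice 1 day, 27% and 39.3% at 1 week and, at 3 weeks, 38.2% and 18.7%, with no correction for the depth of a cell.

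**Figure D5:**
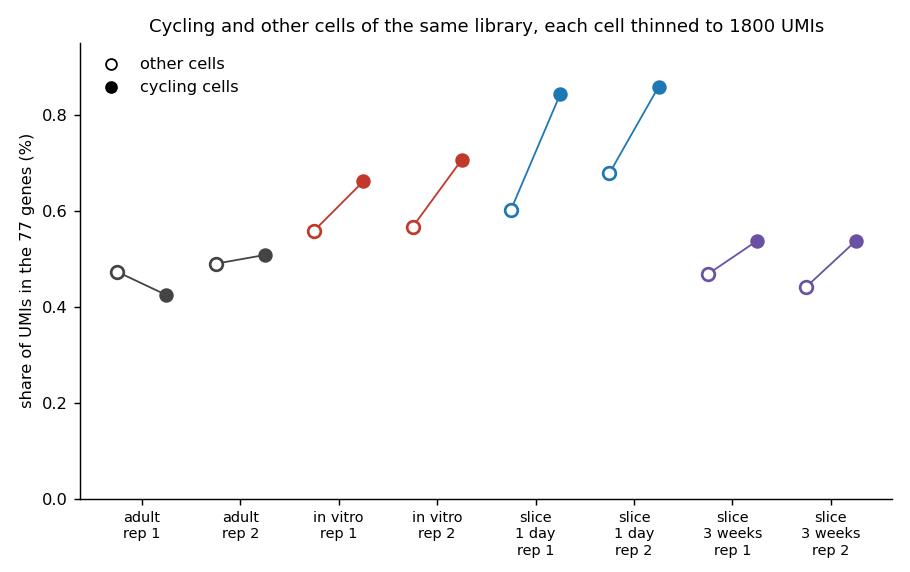
Share of UMIs (%) in the 77 genes in cycling cells (filled) and other cells (open) of the same library, each cell thinned to 1800 UMIs, for the 8 libraries with at least 20 cells of each kind. The filled point lay higher in all in vitro and slice libraries shown, and the open points were highest at slice 1 day and next highest in vitro.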

How the data were processed

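Microglia from 10 libraries (5 groups of 2) were compared. The authors deposited 1 table of raw counts (UMIs of each gene in each barcode) for each library, and the submitters' processing notes name Cell Ranger 1.3.0 and mm10. Alignment, barcode calling and UMI collapsing were thus done upstream, and a gene not listed in a table was taken as 0. Barcodes had to hold at least 400 genes, no more than 30000 UMIs and no more than 5% of them mitochondrial; 578 of 19637 failed and 19059 stayed, with 23 barcodes at most shared by any pair of libraries. No doublet caller was run. Symbols listed more than once (13) were summed.

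Counts of the cells kept were summed per library and fitted with edgeR 4.0.16 in R 4.3.3 (quasi-likelihood F test with TMM factors, after filterByExpr at 10 counts) in 1 model of the 5 groups, over 12157 genes, with Benjamini-Hochberg adjustment over all of them. The biological coefficient of variation was 18.3%. Calls needed an adjusted p under 0.05 and a fold change over 1.5. CPM of single genes refer to the TMM-scaled library size, and summed CPM of marker lists to the library total without TMM factors. The p-values rest on the spread between the 2 libraries of a group, estimated over all 5 groups together. In adult and slice 3 weeks this spread includes the difference of study label. The procedure was tested on simulated data. Alternatives were DESeq2 1.42.0 and other scalings, filters, samples and cells. The rule of 1% of UMIs for cells of other types was chosen after seeing the data, as the planned minimum of 3 UMIs removed all cells of 2 libraries.

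Members described by name were the 5 highest and 3 lowest in adult, the called members with the largest changes in each comparison (average log2 CPM of at least 3), and members chosen for their roles. Rpusd3, Ngrn, Tefm, Nrf1 and others of the gene lists, Mrps22, Mrpl46, Mrps11 and the members whose promoters are shown were chosen after their values were seen. The members and all lists were chosen with earlier results of these data known, so no test of a list was made. Promoters came from RefSeq windows on GRCm38.p6 and places from GENCODE vM21. Python 3.11.15, pandas 2.3.3, numpy 2.4.6 and scipy 1.17.1 were used.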

Additional observations from a re-analysis of the deposited data

Results flagged for a closer look

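Gene by gene, the change in slices against adult differed between the 1 day and the 3 weeks cultures for 28 of the 77 members in the edgeR fit of these groups against each other. All 28 were lower at 3 weeks, beside 12.8% of all genes lower and 13.9% higher, as described above. The members were not tested as a group.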

How the results depend on the processing

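The balance of calls at slice 1 week and 3 weeks moved with the scaling, while the members' median stayed above that of all genes (by 0.17 and 0.13 with library size alone). By library size alone the calls were 14 at 1 week (5 higher, 9 lower) and 5 at 3 weeks (2 higher, 3 lower), and 12 between in vitro and slice 3 weeks. That scaling moved the median of all genes by -0.30 in vitro, -0.12 at 1 day, -0.22 at 1 week and -0.20 at 3 weeks. With UMIs per cell and no scaling for depth the calls against adult were 76 in vitro, 76 at slice 1 day, 61 at 1 week and, at 3 weeks, 73, and 75 between in vitro and slice 3 weeks, since the median of all genes moved by 2.16, 1.55, 1.19, 1.09 and 1.08. The same setting turned Mrps2 to 1.52 in vitro and 0.39 at 3 weeks, Mrps18b to 2.12 in vitro, 1.07 at 1 week and 1.02 between in vitro and slice 3 weeks, Mrps14 to 1.14 at 3 weeks, and at 1 week Mrps33 to 1.03, Mrpl36 to 0.56 and Mrpl11 to 1.03.

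With all libraries thinned to the smallest total, calls fell to 22 in vitro, 21 at 1 day, 3 at 3 weeks, 6 between in vitro and slice 3 weeks and 8 between 3 weeks and 1 day, with fewer counts by construction. With the adjusted p alone they were 18 at 1 week, 17 at 3 weeks, 34 between in vitro and slice 3 weeks and 46 between 3 weeks and 1 day. The rule of 3 UMIs for cells of other types, which left no cells of slice 1 day replicate 2 and slice 1 week replicate 1, gave 25 at 1 day, 3 at 1 week and 1 between 3 weeks and 1 day. Without cells marked as cycling at full depth, which are more than those marked after thinning, there were 17 between 3 weeks and 1 day, and the share of UMIs was 0.540% and 0.543% in vitro, 0.615% and 0.626% at 1 day, then in older slices 0.432% and 0.412% (1 week) and 0.455% and 0.436% (3 weeks), all below adult at 0.468% and 0.478%. Unthinned cells had medians of 13 members in adult replicate 1, 41 and 43 in vitro, 27 and 37 at slice 1 day, 23 and 22 at 1 week and, at 3 weeks, 23 and 19.

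Leaving out 1 library gave 32 to 39 calls in vitro, 36 to 46 at 1 day, 4 to 14 at 1 week, 7 to 11 at 3 weeks (4 higher and 3 lower without slice 3 weeks replicate 1), 16 to 30 between in vitro and slice 3 weeks and 13 to 36 between 3 weeks and 1 day. Replicate numbers did not pair the samples, since the correlation of same-numbered deviations ran from -0.11 to 0.09 over 10 pairs. With the replicate block the calls were 32, 42, 10, 7, 18 and 28 in the same order of comparisons. With the study label as a covariate they were 32, 43, 11, 7, 22 and 31. Every other setting, DESeq2 included, stayed within 1.5 times the counts reported.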
